A study of Mus musculus with 3 samples.

Results

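The genes described here encode the laminin chains, nidogens and perlecan of the basement membrane of inguinal white adipose tissue. They are *Lama2*, *Lama4*, *Lama5*, *Lamb1*, *Lamb2*, *Lamc1*, *Nid1*, *Nid2* and *Hspg2*, 9 of the 32285 genes in the deposited count tables, and are defined by gene symbol, with no measured value in the definition, although the group was picked with earlier results of these data known. All 9 were detected in every library. Their levels were described across 10 cell classes and 3 genotypes.

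Laminins are cross-shaped heterotrimers of an α, a β and a γ chain, and the chain make-up differs between tissues. They polymerise on the cell surface, where integrins and dystroglycan bind the α chain, and nidogens and the heparan sulphate proteoglycan perlecan link the laminin sheet to the collagen IV network. Fat cells, vessels, nerve fibres and glandular epithelium each rest on or are wrapped by such a sheet, and the adipocyte is among the few mesenchymal cells that are fully enclosed by one.

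The study asked how loss of matrix Gla protein (MGP), a secreted inhibitor of calcification and of BMP signalling encoded by *Mgp*, alters progenitor cells of fat. Inguinal stromal vascular cells of mice aged 4 weeks were sorted to remove dead (DAPI-stained) and CD45-positive cells and were sequenced as droplet-based 10x Genomics libraries. The Wild-type library came from mice with intact *Mgp*, the *Mgp*-KO library from mice with a global *Mgp* deletion, and the Pd-KO library from floxed *Mgp* mice carrying *Pdgfra*-Cre, in which the deletion is limited to cells that express *Pdgfra*, or whose ancestors did. Each genotype is 1 library of pooled mice of both sexes, the wild-type mice are not the floxed animals without Cre, and the labels put all 3 libraries in batch 1. Fat cells filled with lipid float and are lost from a stromal vascular preparation, so the adipocytes seen here are early ones.

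Promoters of 6 of the 9 genes were in the RefSeq table used here (*Lama2*, *Lama5*, *Lamb1*, *Lamb2*, *Nid1* and *Hspg2*). Each window runs from 250 bases before to 50 bases after the annotated start. The pair *Lamb1* and *Lamb2* is shown because the share of β-chain UMIs from *Lamb2* was low in some classes and high in others. The pair *Lama2* and *Lama5* is shown because their levels were high in different classes. Capitals mark GC boxes (GGGCGG on either strand). *Lamb1* lies at chr12:31265043-31265342 on the plus strand and *Lamb2* at chr9:108479612-108479911 on the plus strand of GRCm38.p6. *Lama2* lies at chr10:27616893-27617192 and *Lama5* at chr2:180225810-180226109, both on the minus strand. The *Lama2* window lies inside the GENCODE M21 span of the gene, which starts at 27619758 on that strand. RefSeq and GENCODE thus differ in the start of *Lama2*, and its letters below are those at the RefSeq start alone.
Lamb1: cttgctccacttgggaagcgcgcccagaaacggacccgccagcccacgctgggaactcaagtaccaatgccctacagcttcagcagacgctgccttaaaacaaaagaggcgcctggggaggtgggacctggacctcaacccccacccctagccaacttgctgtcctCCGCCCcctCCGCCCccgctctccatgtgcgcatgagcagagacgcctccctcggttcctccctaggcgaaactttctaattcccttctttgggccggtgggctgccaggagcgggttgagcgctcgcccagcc
Lamb2: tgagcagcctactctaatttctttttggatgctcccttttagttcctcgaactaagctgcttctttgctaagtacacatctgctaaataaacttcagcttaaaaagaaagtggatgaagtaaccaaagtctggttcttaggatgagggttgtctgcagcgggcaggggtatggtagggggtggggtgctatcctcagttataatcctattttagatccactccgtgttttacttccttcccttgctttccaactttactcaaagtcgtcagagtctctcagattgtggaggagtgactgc
Lama2: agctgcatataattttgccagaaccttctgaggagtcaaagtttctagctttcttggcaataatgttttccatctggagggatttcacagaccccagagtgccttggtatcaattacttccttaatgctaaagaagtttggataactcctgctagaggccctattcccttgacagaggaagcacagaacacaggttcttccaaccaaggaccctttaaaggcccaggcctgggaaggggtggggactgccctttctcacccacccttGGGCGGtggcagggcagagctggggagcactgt
Lama5: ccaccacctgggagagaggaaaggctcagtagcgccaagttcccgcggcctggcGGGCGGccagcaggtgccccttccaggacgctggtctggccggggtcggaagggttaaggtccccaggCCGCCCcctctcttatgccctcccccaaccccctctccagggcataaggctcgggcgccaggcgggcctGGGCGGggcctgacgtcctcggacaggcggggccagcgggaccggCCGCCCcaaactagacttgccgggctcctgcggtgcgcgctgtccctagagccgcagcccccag
The promoter of *Hspg2* held 5 GC boxes, that of *Lama5* held 4, that of *Lamb1* held 2, those of *Lama2* and *Nid1* held 1 each, and that of *Lamb2* held 0. Of 32851 RefSeq windows of the same length, 35.7% held at least 1 GC box and 5.49% at least 4. The windows of *Lama5* and *Hspg2* were 72.7% and 70.3% G or C, against 44.0% for *Lamb2* and a median of 52.7% over all windows. A TATA box (TATAAA on either strand, in 13.6% of windows) was not found in any of the 6 windows, and 1 CCAAT box (CCAAT on either strand, in 37.4% of windows) was found in each of *Lamb1* and *Nid1*. These matches describe the letters of the windows and no binding was measured.

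After cells with fewer than 2000 UMIs or more than 10% mitochondrial UMIs were left out, 10511 cells remained in Wild-type, 12575 in *Mgp*-KO and 8819 in Pd-KO, with medians of 12802, 6445 and 8269 UMIs per cell. Libraries shared 35 to 40 cell barcodes in pairs. *Mgp* itself was at 451 counts-per-million (CPM) in all Wild-type cells, 1.75 in *Mgp*-KO and 18.1 in Pd-KO cells. Among the classes described below, only pericyte-like cells kept it in Pd-KO (633 against 619 CPM in Wild-type). In every other class the Pd-KO level lay below Wild-type, other vessel classes included. Endothelial-like cells held 682.9 CPM in Wild-type and 37.47 CPM in Pd-KO, and smooth muscle-like cells 247.5 and 59.1 CPM. The cause of this difference between classes was not tested. By their headers the Wild-type table was made with Cell Ranger 4 and both knockout tables with Cell Ranger 7.1.0, so processing version and loss of *Mgp* cannot be told apart in any comparison with Wild-type. Genes with a long genomic span were higher in both knockout libraries: in preadipocyte-like cells the 200 tested genes nearest to *Lama2* in span had a median of 2.88 on the log2 scale in *Mgp*-KO over Wild-type, against 0.16 for all genes. Ratios are therefore also given against the 200 tested genes nearest in span, a scale added after the data had been seen. Cells called female by *Xist* made up 60.6% of the *Mgp*-KO cells, against 35.1% of the Wild-type and 32.5% of the Pd-KO cells.

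Clusters were named by marker genes, and none of the 9 genes took part in the clustering. The clusters were those found after integration with Harmony. Without it, 1 interstitial progenitor-like cluster held 3551 cells from *Mgp*-KO, 3217 from Pd-KO and 3 from Wild-type. In the same order, preadipocyte-like clusters held 2521, 1052 and 1 cells, and 433, 412 and 3743 cells. Another interstitial progenitor-like cluster (2183, 1039 and 1640) and the Areg-like cluster (858, 718 and 1040) were mixed. The cause of the uneven clusters was not tested. The 10 classes held 28973 cells, namely interstitial progenitor-like cells (*Dpp4*, *Pi16*), preadipocyte-like cells (*Vcam1*, *Ggt5*), Areg-like cells (*Gdf10*, *Fmo2*; adipogenesis-regulatory cells), early adipocyte-like cells (*Adipoq*, *Plin1*), endothelial-, smooth muscle-, pericyte- and Schwann-like cells, and luminal and basal myoepithelial-like cells of the mammary ducts in the pad. In every library all 7 endothelial, 7 luminal and 5 basal markers were highest in the class of that name, and of the Schwann markers 7 or 8 of 8. The preadipocyte name was less sharp, with 3 or 4 of 8 markers highest in that class. Its larger cluster had a marker score of 1.316, against 1.158 for *Fgf10* stromal markers. Its smaller cluster had 1.124, against 1.151 for general progenitor markers. At Leiden resolution 1.0 a cluster of 1353 cells was named *Fgf10* stromal. For pericytes 3 or 4 of 6 markers were highest in the class, with *Rgs5* among them in Wild-type alone. Early adipocyte-like cells numbered 167 in Wild-type, 57 in *Mgp*-KO and 42 in Pd-KO and Schwann-like cells 166, 23 and 53 in the same order. Lymphatic endothelial-like cells were not described because the *Mgp*-KO library held 7 of them. Levels are UMIs of a gene on a counts-per-million scale (CPM), from UMIs summed over the cells of a class, always in the order Wild-type, *Mgp*-KO, Pd-KO, and every interval is a 95% interval that covers counting error alone. Each genotype is 1 library, so there is no replicate error and no test between genotypes.

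*Lama2* encodes the α2 chain of merosin, the laminin of muscle and peripheral nerve, whose loss causes a congenital muscular dystrophy. It was high in the progenitor classes and in Schwann-like cells and low in epithelium. In preadipocyte-like cells it stood at 192 (188 to 196), 884.5 (873 to 896.5) and 861 (846 to 876) CPM. In Schwann-like cells it stood at 237.5 (211 to 266), 854 (706 to 1023) and 1256 (1118 to 1405) CPM. Both knockout libraries lay above Wild-type in these classes, with intervals that did not overlap Wild-type. Early adipocyte-like cells held far less, at 36.1, 248 and 248 CPM, and luminal cells 31.3, 64.8 and 66.9 CPM. Free RNA, measured in barcodes of 10 to 100 UMIs, held *Lama2* at 116, 517 and 755 CPM. The early adipocyte-like and luminal values thus lay below the free RNA of their own library. Subtracting free RNA at 10% of the UMIs of a class turned the luminal difference between *Mgp*-KO and Wild-type from log2 0.92 to -0.74. *Lama2* spans 640 kb (chr10:26980036-27619758 on the minus strand, GRCm38), longer than 99.6% of the genes.

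*Lama4* encodes the α4 chain, a short chain typical of endothelial and adipocyte basement membranes. It was spread more evenly than *Lama2*. Preadipocyte-like cells held 159 (156 to 163), 173 (168 to 179) and 357 (347 to 367) CPM, and early adipocyte-like cells held 135 (125 to 145), 177 (147 to 212) and 395 (345 to 450) CPM. The Pd-KO library was the highest in both classes, with no overlap with the others. Endothelial-like cells held 120.5, 152 and 251 CPM, and Schwann-like cells 223, 277 and 460.0 CPM. In *Mgp*-KO and Pd-KO the Schwann-like value was the highest of the 10 classes, but its interval overlapped that of early adipocyte-like cells. Luminal cells were lowest in every library (33.2, 20.98 and 53.9 CPM).

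*Lama5* encodes the α5 chain of vessel walls and epithelia. It was nearly confined to vessels and epithelium in these libraries. Smooth muscle-like cells led, at 116 (108 to 124), 133 (107 to 164) and 149 (130 to 169) CPM, followed by basal cells at 51.9, 53.6 and 95.8 CPM and endothelial-like cells at 44.7, 47.1 and 58.9 CPM. Preadipocyte-like cells held 0.835, 0.252 and 0.268 CPM, and early adipocyte-like cells held 1 UMI in Wild-type and 0 in both knockout libraries, where a floor of 3 UMIs corresponds to 4.51 CPM in *Mgp*-KO and 5.25 CPM in Pd-KO. A *Lama5* UMI was seen in 54.98%, 44.1% and 48.4% of the smooth muscle-like cells, at median depths of 6774.5, 3108.5 and 3961.5 UMIs, and in 1.27%, 0.180% and 0.174% of the preadipocyte-like cells, at 14917, 6595 and 8289.5 UMIs. The class with the deeper cells thus had the lower share, and the order held at an equal 2000 UMIs per cell (22.8% against 0.195% in Wild-type). Pericyte-like cells differed between libraries (22.8, 5.79 and 3.17 CPM), on 36, 2 and 5 UMIs. Free RNA held *Lama5* at 12.2, 12.65 and 12.56 CPM, above the pericyte-like level in both knockout libraries.

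**Figure D1:**
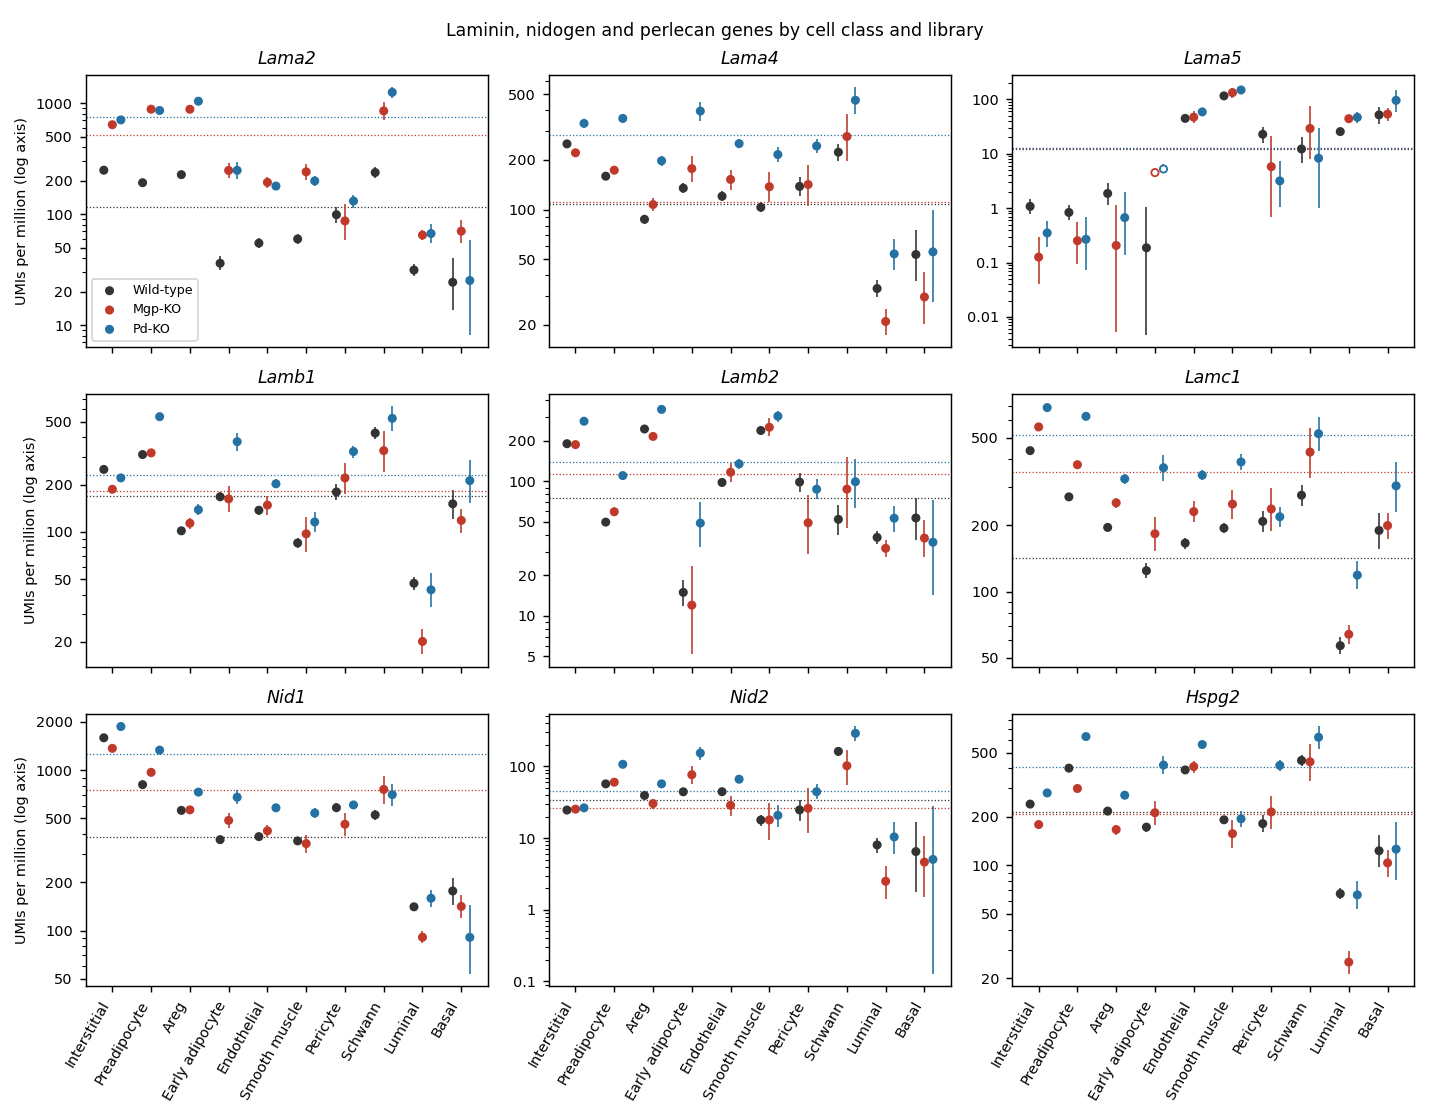
Level of each gene, in CPM on a log axis, in the 10 cell classes of the Wild-type (grey), *Mgp*-KO (red) and Pd-KO (blue) libraries, with 95% Poisson intervals as bars, open points at the 3-UMI floor where a class held 0 UMIs, and dotted lines at the free RNA of each library. *Lama5* is the only panel in which the vessel and epithelial classes lie above the progenitor classes, and luminal cells are at or near the bottom of the other panels.

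*Lamb1* encodes the β1 chain, the common β chain of embryonic and interstitial laminins. It was led by preadipocyte- and Schwann-like cells. Preadipocyte-like cells held 310 (305 to 315), 318 (310.5 to 325) and 540 (528 to 551.5) CPM, and Schwann-like cells 424 (389 to 462.5), 328 (239.5 to 439) and 526 (439 to 626) CPM. Wild-type and *Mgp*-KO differed little in preadipocyte-like cells and Pd-KO lay above both. Smooth muscle-like cells held 85.0, 97.2 and 116 CPM and luminal cells 47.2, 20.1 and 42.9 CPM.

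*Lamb2* encodes the β2 chain, found at the neuromuscular junction, in the glomerulus and in arterial smooth muscle. Its order of classes was the reverse of that of *Lamb1* in several places. Areg-like cells held 245, 216 and 343 CPM, smooth muscle-like cells 239, 253 and 306 CPM and interstitial progenitor-like cells 191, 188 and 280 CPM. The first 2 of these did not differ beyond their intervals in any library. Preadipocyte-like cells held only 49.8 (47.8 to 51.8), 59.5 (56.4 to 62.7) and 110.5 (105 to 116) CPM, and early adipocyte-like cells 14.95, 12.02 and 48.97 CPM on 80, 8 and 28 UMIs.

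The share of β-chain UMIs that came from *Lamb2* was low in some classes and high in others. It was 13.8%, 15.8% and 17.0% in preadipocyte-like cells, 8.18%, 6.84% and 11.6% in early adipocyte-like cells and 10.9%, 21.05% and 15.9% in Schwann-like cells. In Areg-like cells it was 70.6%, 65.5% and 70.8%, and in smooth muscle-like cells 73.7%, 72.2% and 72.4%. Every preadipocyte, early adipocyte and Schwann value lay below every Areg and smooth muscle value, and the other classes lay between or overlapped the low ones. Interstitial progenitor-like cells were at 43.0%, 49.9% and 55.2%. Endothelial-like cells were at 39.9% to 44.0%, luminal cells at 43.2% to 54.6%, pericyte-like cells at 18.1% to 35.4% and basal cells at 10.8% to 21.02%. Among α chains, the share from *Lama4* was 78.6%, 41.7% and 61.1% in early adipocyte-like cells against 45.2%, 16.4% and 29.3% in preadipocyte-like cells, higher in early adipocyte-like cells in each library. *Lama5* gave 41.3%, 25.8% and 25.9% of the α-chain UMIs of smooth muscle-like cells. Shares are compared between classes only, because chains differ in length and span, and the α-chain shares move with the *Lama2* difference between the libraries.

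**Figure D2:**
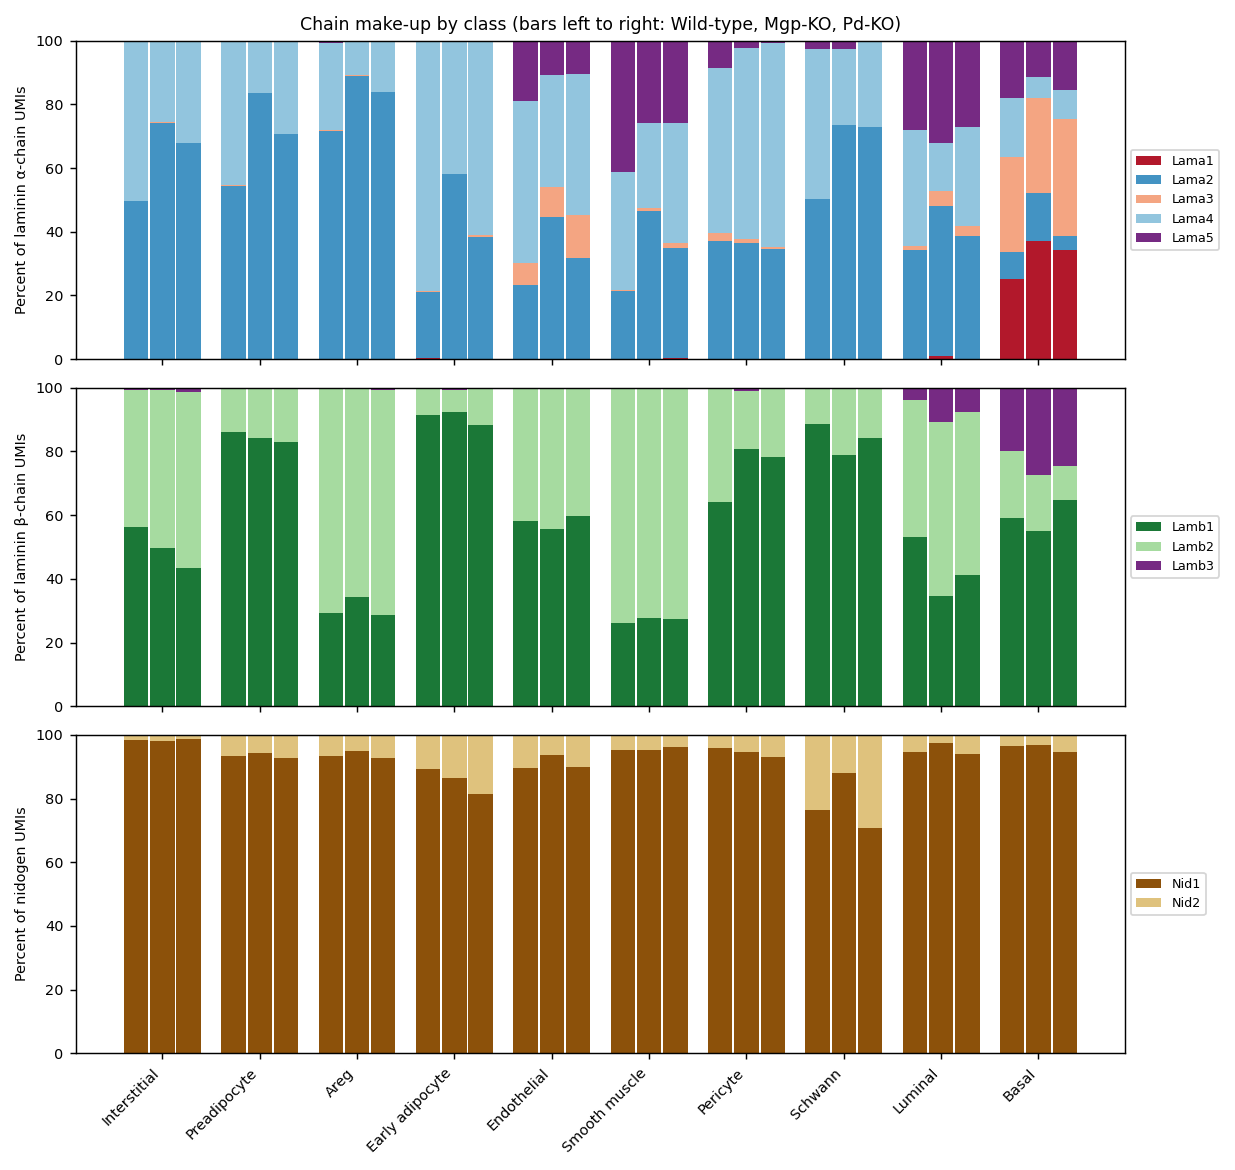
Percent of the α-chain, β-chain and nidogen UMIs of each class that came from each gene, stacked to 100%, with the bars of a class in the order Wild-type, *Mgp*-KO, Pd-KO. *Lamb2* takes 65.5% to 73.7% of the β-chain UMIs in Areg- and smooth muscle-like cells and 6.84% to 21.05% in preadipocyte-, early adipocyte- and Schwann-like cells.

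*Lamc1* encodes the γ1 chain, which is shared by most laminins. It was found in all classes and was highest in interstitial progenitor-like cells, at 437 (430 to 444), 560 (553 to 568) and 686 (678 to 694) CPM. Preadipocyte-like cells followed in Pd-KO, with 269.5, 377 and 626 CPM in the 3 libraries. Early adipocyte-like cells held 124, 183 and 365.5 CPM and luminal cells 56.8, 63.9 and 119 CPM. In these 4 classes the order of the libraries was Wild-type, *Mgp*-KO, Pd-KO from low to high, though in luminal cells the Wild-type and *Mgp*-KO values were close. Free RNA held *Lamc1* in the same order, at 142, 350 and 513.5 CPM, above the early adipocyte-like and luminal levels of each library.

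*Nid1* encodes nidogen-1, the linker that binds the γ1 chain. It was highest in interstitial progenitor-like cells of each library, at 1593 (1580 to 1606), 1369 (1358 to 1381) and 1873 (1860 to 1886) CPM. *Mgp*-KO was the lowest and Pd-KO the highest there. Preadipocyte-like cells held 813, 970 and 1335 CPM, early adipocyte-like cells 369, 487 and 679 CPM and luminal cells 141, 90.9 and 159 CPM. Free RNA held *Nid1* at 385.5, 749 and 1269 CPM, above the early adipocyte-like and luminal levels of each library.

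*Nid2* encodes nidogen-2, a second nidogen with an overlapping role. It was highest in Schwann-like cells of each library, at 162 (141 to 187), 102 (55.9 to 171) and 290.1 (226 to 366.5) CPM, on 199, 14 and 70 UMIs. The *Mgp*-KO value overlapped those of early adipocyte- and preadipocyte-like cells, so the lead of Schwann-like cells held beyond counting error in Wild-type and Pd-KO. In each library *Nid2* was lower in interstitial progenitor-like than in preadipocyte-like cells, whereas *Nid1* was higher. Interstitial progenitor-like cells held 24.6, 25.3 and 26.4 CPM, preadipocyte-like cells 57.1, 60.2 and 107 CPM and early adipocyte-like cells 44.3, 76.6 and 154 CPM.

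*Hspg2* encodes perlecan, the large heparan sulphate proteoglycan. It was high in nerve, endothelium and preadipocytes. Preadipocyte-like cells held 400.1 (394 to 406), 299 (292 to 306) and 628 (615 to 641) CPM, so that *Mgp*-KO was lowest and Pd-KO highest with no overlap. Endothelial-like cells held 390.0, 409 and 560 CPM and Schwann-like cells 446.5, 438 and 622 CPM, and interstitial progenitor-like cells less, at 239.5, 179 and 281 CPM. Luminal cells were lowest (66.7, 25.1 and 65.6 CPM). The class with the highest level was the same in all 3 libraries for 4 of the 9 genes, namely *Lama5* (smooth muscle), *Lamc1* and *Nid1* (interstitial progenitor) and *Nid2* (Schwann). Only for *Nid1* did the lead hold beyond counting error in every library. The leading interval of *Lama5* overlapped that of basal cells in Pd-KO. In *Mgp*-KO that of *Lamc1* overlapped Schwann-like cells and that of *Nid2* overlapped early adipocyte- and preadipocyte-like cells. No share over all genes was computed for this count.

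To compare classes within a library, each class was set against preadipocyte-like cells, relative to the median of all genes tested, and a gene was counted when it was at least 1.5-fold away in the same direction in all 3 libraries. Cells of a library share it, so this is a description with 3 libraries behind it. *Lama5* was too low in preadipocyte-like cells to be tested, which leaves 8 genes. In interstitial progenitor-like cells *Lamb2* was higher and *Nid2* and *Hspg2* were lower (1 and 2 of 8, beside 7.75% and 7.1% of all genes). In early adipocyte-like cells 0 genes were higher and 4 were lower, *Lama2*, *Lamb2*, *Lamc1* and *Nid1* (11.5% and 10.8% of all genes). The *Lama2* log2 ratios there were -2.23, -1.68 and -1.76, while those of *Lama4* were -0.05, 0.19 and 0.18. In endothelial-like cells 0 were higher and 4 lower, *Lama2*, *Lamb1*, *Lamc1* and *Nid1* (12.8% and 14.1%). In smooth muscle-like cells *Lamb2* was higher, by log2 2.14, 2.06 and 1.34, and 6 of 8 were lower (9.97% and 12.8%). In Schwann-like cells *Nid2* was higher, by log2 1.25, 0.60 and 1.28, and 0 were lower (7.77% and 8.3%). The *Mgp*-KO value of *Nid2* there rested on 23 cells. Its interval was -0.32 to 1.30, so its direction was not settled by the counts. In vessels, smooth muscle and early adipocytes the genes lower than in preadipocyte-like cells were thus a larger share of the 8 than of all genes.

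Between genotypes, ratios were likewise taken relative to the median of all genes tested in a class (at least 100 UMIs over both libraries), and called at 1.5-fold. Both knockout libraries are set against the same Wild-type library, and the comparison of Pd-KO with *Mgp*-KO, added after the data had been seen because those files carry the same Cell Ranger version, shares both knockout libraries, so the 3 comparisons are not independent. For *Mgp*-KO over Wild-type, 12 of 75 gene and class pairs were higher and 6 lower, beside 19.1% and 9.92% over all genes, and the 9 genes had a median log2 ratio of -0.01. For Pd-KO over Wild-type, 36 of 77 pairs were higher and 1 lower, beside 23.2% and 14.2%, with a median of 0.48. For Pd-KO over *Mgp*-KO, 29 of 73 pairs were higher and 1 lower, beside 9.61% and 7.89%, with a median of 0.52. The median of all genes is 0 by construction. Pooled over classes, Pd-KO thus stood above the background in the higher direction in both of its comparisons. For Pd-KO over *Mgp*-KO, interstitial progenitor- and smooth muscle-like cells had 0 of 8 higher, and preadipocyte-like and luminal cells 6 of 8. Shares of single classes are given below, but none was computed for smooth muscle-like cells. For *Mgp*-KO over Wild-type neither count was above the background. The 6 lower pairs became 15 of 75 with free RNA subtracted, 14 of 75 with each cell weighing the same and 21 of 89 with no filter on low counts. Free RNA held each of the 9 genes except *Lama5* higher in Pd-KO than in *Mgp*-KO. Its subtraction left 24 of 68 pairs higher and 1 lower in Pd-KO over *Mgp*-KO. Shares over all genes were not computed under these settings, so these counts cannot be set against a background.

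Against genes nearest in span the picture for Wild-type turned. For *Mgp*-KO over Wild-type, 2 pairs were higher and 27 lower (12.6% and 9.91% of all genes), and for Pd-KO over Wild-type 6 were higher and 17 lower (14% and 11.5%). For Pd-KO over *Mgp*-KO, 20 were higher and 3 lower (7.16% and 7.49%). The excess of higher pairs in Pd-KO over *Mgp*-KO was therefore present on both scales, while that in Pd-KO over Wild-type was not. *Lama2* shows this most plainly. It was higher in *Mgp*-KO in 8 of 9 classes tested, by log2 2.04 (2.00 to 2.07) in preadipocyte-like cells, but was -0.67 there against genes of like span, and between Pd-KO and *Mgp*-KO it was within 1.5-fold in all 9 classes. In free RNA it differed between libraries in the same direction. Span-scale shares of all genes were taken over the 10 classes pooled. The span-scale counts of single classes below thus have no share of their own class beside them.

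**Figure D3:**
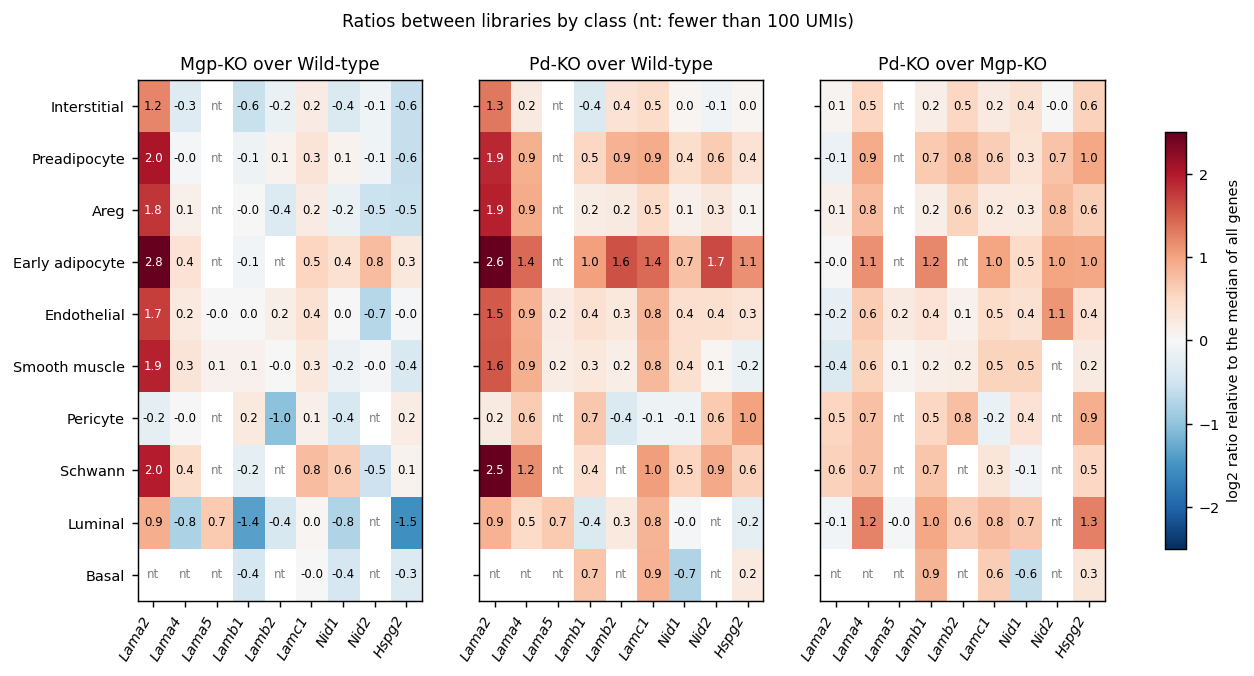
Log2 ratio of each gene in each class, relative to the median of all genes tested, for *Mgp*-KO over Wild-type, Pd-KO over Wild-type and Pd-KO over *Mgp*-KO (red higher, blue lower, nt for fewer than 100 UMIs). The *Lama2* column is red in both comparisons with Wild-type except in pericyte-like cells (-0.23 and 0.22) and lies within 1.5-fold in the third, whereas *Lama4*, *Lamb1* and *Hspg2* are red in many classes of the third.

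In preadipocyte-like cells, 1 of 8 genes was higher and 0 lower in *Mgp*-KO over Wild-type (23.3% and 11.1% of all genes), 5 higher and 0 lower in Pd-KO over Wild-type (24.4% and 17.8%), and 6 higher and 0 lower in Pd-KO over *Mgp*-KO (6.91% and 8.52%). The 6 were *Hspg2* at log2 0.96 (0.91 to 1.00), *Lama4* at 0.93 (0.87 to 0.99), *Lamb2* at 0.78 (0.68 to 0.89), *Nid2* at 0.72 (0.62 to 0.82), *Lamb1* at 0.65 (0.61 to 0.70) and *Lamc1* at 0.62 (0.58 to 0.66). *Nid1* (0.35) and *Lama2* (-0.15) were within 1.5-fold. Against genes nearest in span 4 of the 6 were also past 1.5-fold, *Hspg2*, *Lama4*, *Lamb2* and *Nid2*, whereas *Mgp*-KO over Wild-type had 0 higher and 3 lower and Pd-KO over Wild-type 1 higher and 1 lower. The class holds 2 clusters, and *Lama4* stood at 158, 182 and 381 CPM in the larger, led by *Fgf10* and *Bmper*, and at 164, 144 and 295 CPM in the smaller, led by *Mmp3* and *Ggt5* among others, so that Pd-KO was the highest in each. The sexes were unevenly represented. For Pd-KO over *Mgp*-KO, in cells called female 5 of 8 genes were higher (*Lama4* 1.12, *Hspg2* 1.07, *Lamb1* 0.80, *Nid2* 0.74, *Lamc1* 0.63), and in cells called male 2 of 8 (*Lamb2* 0.94, *Hspg2* 0.79), where *Lama4* was at 0.57 and *Lamc1* at 0.55. Shares over all genes were not computed by sex, so these counts have no background beside them.

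In early adipocyte-like cells, 2 of 7 genes were higher and 0 lower in *Mgp*-KO over Wild-type (20.6% and 13.1% of all genes), all 8 tested were higher in Pd-KO over Wild-type (25.5% higher and 21.8% lower), and 5 of 7 were higher and 0 lower in Pd-KO over *Mgp*-KO (16% and 12.6%). In the last of these *Lamb1* was at log2 1.198 (0.86 to 1.55), *Lama4* at 1.15 (0.82 to 1.49), *Nid2* at 0.99 (0.49 to 1.53), *Lamc1* at 0.99 (0.66 to 1.32) and *Hspg2* at 0.97 (0.67 to 1.29), and all 5 were past 1.5-fold against genes nearest in span too. On that scale *Mgp*-KO over Wild-type had 1 of 7 higher and Pd-KO over Wild-type 2 of 8, with 0 lower in each. *Nid1* was at 0.47 and *Lama2* at -0.001. These values rest on 57 *Mgp*-KO and 42 Pd-KO cells. In cells called male 6 of 7 genes were higher in *Mgp*-KO over Wild-type, and in cells called female 2 were higher and *Lamb1* was lower (-0.97). Of the 57 *Mgp*-KO cells 43.86% were called male and 36.84% female, so each of these counts rests on few cells. They have no background beside them, because no share over all genes was computed by sex. Neither comparison with Pd-KO has values by sex in this class. Of its 42 Pd-KO cells 42.86% were called female and 28.57% male, which left each sex below the cell limit for a class.

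**Figure D4:**
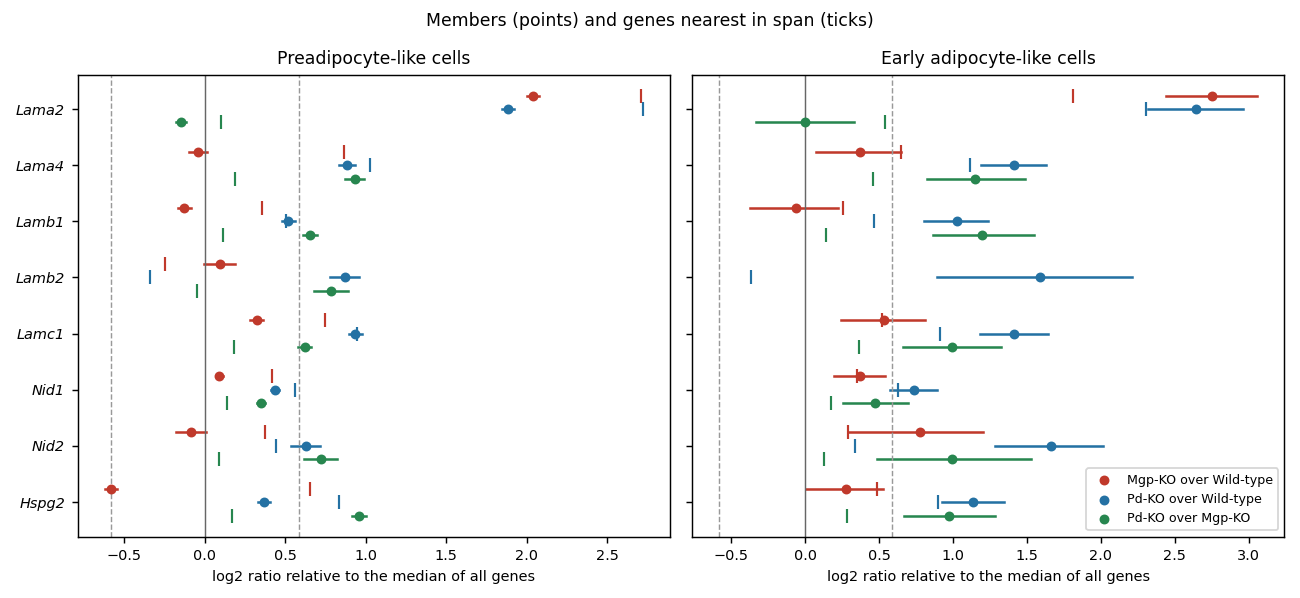
Log2 ratios, relative to the median of all genes, of 8 genes in preadipocyte-like (left) and early adipocyte-like cells (right) for the 3 comparisons, with 95% intervals for counting error as lines, ticks at the median of the 200 genes nearest in span, and dashed lines at 1.5-fold. In Pd-KO over *Mgp*-KO (green) 6 of 8 preadipocyte values and 5 of 7 early adipocyte values lie beyond the upper dashed line, and *Lama2* lies near 0 in both.

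In interstitial progenitor-like cells the genes differed less between libraries. In *Mgp*-KO over Wild-type 1 of 8 was higher and 0 lower (20% and 7.43% of all genes), in Pd-KO over Wild-type 1 higher and 0 lower (24.7% and 13.7%), each time *Lama2*, and in Pd-KO over *Mgp*-KO 0 were past 1.5-fold (7.78% higher and 7.96% lower). *Hspg2* lay just inside the limit there, at 0.58. The largest cluster of this class was led by *Pi16* and *Sbsn* in Wild-type and by *Ccn5* and *Cilp* in both knockout libraries. *Lamb1* stood at 210, 159 and 174 CPM in the *Ccn5*-led cluster and at 244, 197 and 238 CPM in the *Pi16*-led cluster. Wild-type was highest in each, but in the *Pi16*-led cluster its interval (236 to 253) overlapped that of Pd-KO (228 to 248). *Lama2* stood at 266.5, 809 and 904 CPM in the *Ccn5*-led cluster, at 273 (Wild-type), 711 (*Mgp*-KO) and 695 (Pd-KO) CPM in another cluster led by *Adamts16*, and at 217, 299 and 318 CPM in the *Pi16*-led cluster, where the libraries lay closest. The class had, against genes nearest in span, 0 higher and 5 lower in *Mgp*-KO over Wild-type, 1 higher and 4 lower in Pd-KO over Wild-type and 1 higher and 0 lower in Pd-KO over *Mgp*-KO. The share of all genes of this class on that scale was not computed.

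In endothelial-like cells, 1 of 9 genes was higher and 1 lower in *Mgp*-KO over Wild-type (14.3% and 7.89% of all genes), namely *Lama2* at 1.72 and *Nid2* at -0.72. In Pd-KO over Wild-type 3 were higher, *Lama2*, *Lama4* and *Lamc1*, and 0 lower (20.8% and 10.2%), and in Pd-KO over *Mgp*-KO 2 were higher and 0 lower (10% and 5.82%), namely *Nid2* at 1.11 (0.64 to 1.64) and *Lama4* at 0.63 (0.42 to 0.85). With called doublets removed *Mgp*-KO over Wild-type had 0 of 9 higher and 1 lower, so *Lama2* was not past 1.5-fold there. In that setting Pd-KO over *Mgp*-KO had 6 of 9 higher. In cells called female Pd-KO over Wild-type had 6 of 9 higher. No share over all genes was computed for either setting, so these counts have no background beside them. On the span scale 0 were higher and 1 lower in each comparison with Wild-type and 1 was higher and 1 lower in Pd-KO over *Mgp*-KO. Free RNA also held *Lama2*, *Lama4* and *Lamc1* higher in Pd-KO than in Wild-type. For *Lama4* it stood at 108, 111 and 285 CPM, so the endothelial-like level of 251 CPM in Pd-KO lay below it. Subtracting free RNA left 1 gene higher and 1 lower in *Mgp*-KO over Wild-type. It left 3 genes higher in Pd-KO over Wild-type and 1 in Pd-KO over *Mgp*-KO, with no share over all genes computed. *Lama5* was within 1.5-fold in smooth muscle- and endothelial-like cells in all 3 comparisons.

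In Schwann-like cells, 3 of 7 genes were higher and 0 lower in *Mgp*-KO over Wild-type (19% and 16.7% of all genes), namely *Lama2* at 1.96, *Lamc1* at 0.77 and *Nid1* at 0.64. In Pd-KO over Wild-type 5 of 7 were higher and 0 lower (21.3% and 14.7%), with *Lama2* at 2.51 (2.27 to 2.74) and *Lama4* at 1.15 (0.82 to 1.47). In Pd-KO over *Mgp*-KO 2 of 6 were higher and 0 lower (25% and 24.2%), *Lama4* at 0.74 and *Lamb1* at 0.70, a share near that of all genes in this small class. The 3 comparisons had, on the span scale, 1 higher and 1 lower, 2 and 0, and 0 and 0.

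In luminal cells, 2 of 8 genes were higher and 4 lower in *Mgp*-KO over Wild-type (19.6% and 8.94% of all genes). The lower ones were *Hspg2* at -1.54 (-1.81 to -1.28), *Lamb1* at -1.36 (-1.66 to -1.06), *Lama4* at -0.79 and *Nid1* at -0.76. In Pd-KO over Wild-type 3 were higher and 0 lower (23.6% and 13.2%), and in Pd-KO over *Mgp*-KO 6 were higher and 0 lower (8.63% and 5.32%), with *Hspg2* at 1.26 (0.88 to 1.63) and *Lama4* at 1.24 (0.82 to 1.65). Free RNA held *Hspg2* at 215, 207.5 and 404 CPM and *Lama4* at 108, 111 and 285 CPM, above the luminal levels. For *Lama4* both free RNA and luminal cells were highest in Pd-KO. Luminal *Hspg2* was low in *Mgp*-KO alone, whereas free *Hspg2* RNA was close in Wild-type and *Mgp*-KO. The part of free RNA in these luminal differences was not tested beyond its subtraction. The span scale gave 0 higher and 6 lower, 0 and 4, and 4 and 0 in the 3 comparisons, without a share of all luminal genes on that scale.

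The genes whose levels followed each member most closely over the 30 class and library points (Pearson r of log2(CPM + 1), 7306 genes of at least 50 CPM in 1 point) are given as a description, since points of a library share its depth and points of a class its cells. For *Lama2* they were *Abca6*, *Antxr2* (r = 0.93 each) and *Lpar1* (0.91), for *Lama4* *Cep170* (0.88), *Nid1* and *Hspg2* (0.87 each), and for *Lama5* *Rassf3* (0.92), *Crip2* (0.90) and *Actn4* (0.89). For *Lamb1* they were *Hspg2* (0.86), *Adam23* (0.85) and *Dpy19l1* (0.84), for *Lamb2* *Pi15* (0.89), *C1qtnf2* (0.88) and *Dact1* (0.86), and for *Lamc1* *St3gal2* (0.93), *Cep170* (0.92) and *Mpdz* (0.88). For *Nid1* they were *Loxl1* (0.96), *Loxl2* (0.95) and *Mxra8* (0.94), of which the first pair encode lysyl oxidase-like crosslinkers of elastin and collagen. For *Nid2* they were *Hspg2* (0.86), *Lama4* (0.86) and *Adam19* (0.82), and for *Hspg2* *Lama4* (0.87), *Nid2* and *Lamb1* (0.86 each). *Hspg2* was thus among the 3 closest genes of *Lama4*, *Lamb1* and *Nid2*, and these were its own 3 closest, whereas *Lama5* had negative correlations with *Nid1* (-0.65), *Lama2* (-0.54), *Nid2* (-0.50) and *Lama4* (-0.47).

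The partners of these genes were taken from lists chosen by function. *Lama1*, the α1 chain, stood at 72.9, 173 and 212 CPM in basal cells and at most at 1.95 CPM in any other class, and gave 25.3%, 37.2% and 34.4% of their α-chain UMIs. *Lama3* and *Lamb3*, chains of epithelial laminins, were also highest in basal cells (*Lama3* 85.9, 139 and 227 CPM), and endothelial-like cells held *Lama3* at 16.3, 41.2 and 77.4 CPM.

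Collagen IV forms the second network of the basement membrane. *Col4a1* stood at 2378, 1684 and 2535 CPM in preadipocyte-like cells and at 491, 210 and 121 CPM in interstitial progenitor-like cells, where both knockout libraries lay below Wild-type (log2 -1.38 and -2.21). *Col15a1* in preadipocyte-like cells stood at 856, 336 and 859 CPM, so that *Mgp*-KO alone was low. Over all classes, 7 of 55 pairs of the 8 collagen genes were higher and 22 lower in *Mgp*-KO over Wild-type (19.1% and 9.92% of all genes), 18 of 56 higher and 9 lower in Pd-KO over Wild-type (23.2% and 14.2%), and 29 of 54 higher and 2 lower in Pd-KO over *Mgp*-KO (9.61% and 7.89%). On the scale of genes nearest in span the counts were 2 higher and 38 lower, 4 higher and 32 lower, and 13 higher and 4 lower, so that the balance of Pd-KO over Wild-type turned.

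Other basement membrane proteins and the receptors divided by class. *Tinagl1* was at 488 to 1052 CPM in endothelial-, smooth muscle- and pericyte-like cells and at most at 80.3 CPM in progenitor-, adipocyte- and Schwann-like cells, and *Smoc1* was at 87.3, 78.1 and 119 CPM in early adipocyte-like cells and at most at 5.38 CPM elsewhere. *Itga6* and *Itgb4*, which pair as a laminin receptor, stood at 406.5, 153 and 564 CPM and at 113.5, 14.6 and 145 CPM in Schwann-like cells, with *Mgp*-KO low on 23 cells, and *Dag1* (dystroglycan) at 573, 248 and 613 CPM. *Itga7* was highest in smooth muscle-like cells (118, 148 and 164 CPM). The 8 other proteins had 5 of 49 pairs higher and 11 lower in *Mgp*-KO over Wild-type, 11 of 51 and 4 in Pd-KO over Wild-type and 17 of 47 and 2 in Pd-KO over *Mgp*-KO. The 9 receptors had 7 of 51 and 7, 10 of 48 and 2, and 10 of 45 and 1 in the same order. Read against the same shares of all genes (19.1% and 9.92%, 23.2% and 14.2%, 9.61% and 7.89%), the higher counts of both lists were below the background in both comparisons with Wild-type and above it in Pd-KO over *Mgp*-KO, and the lower counts were above it in *Mgp*-KO over Wild-type alone. On the span scale the other proteins had 1 higher and 15 lower, 5 and 11, and 10 and 2, and the receptors 5 and 19, 3 and 5, and 5 and 1.

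**Figure D5:**
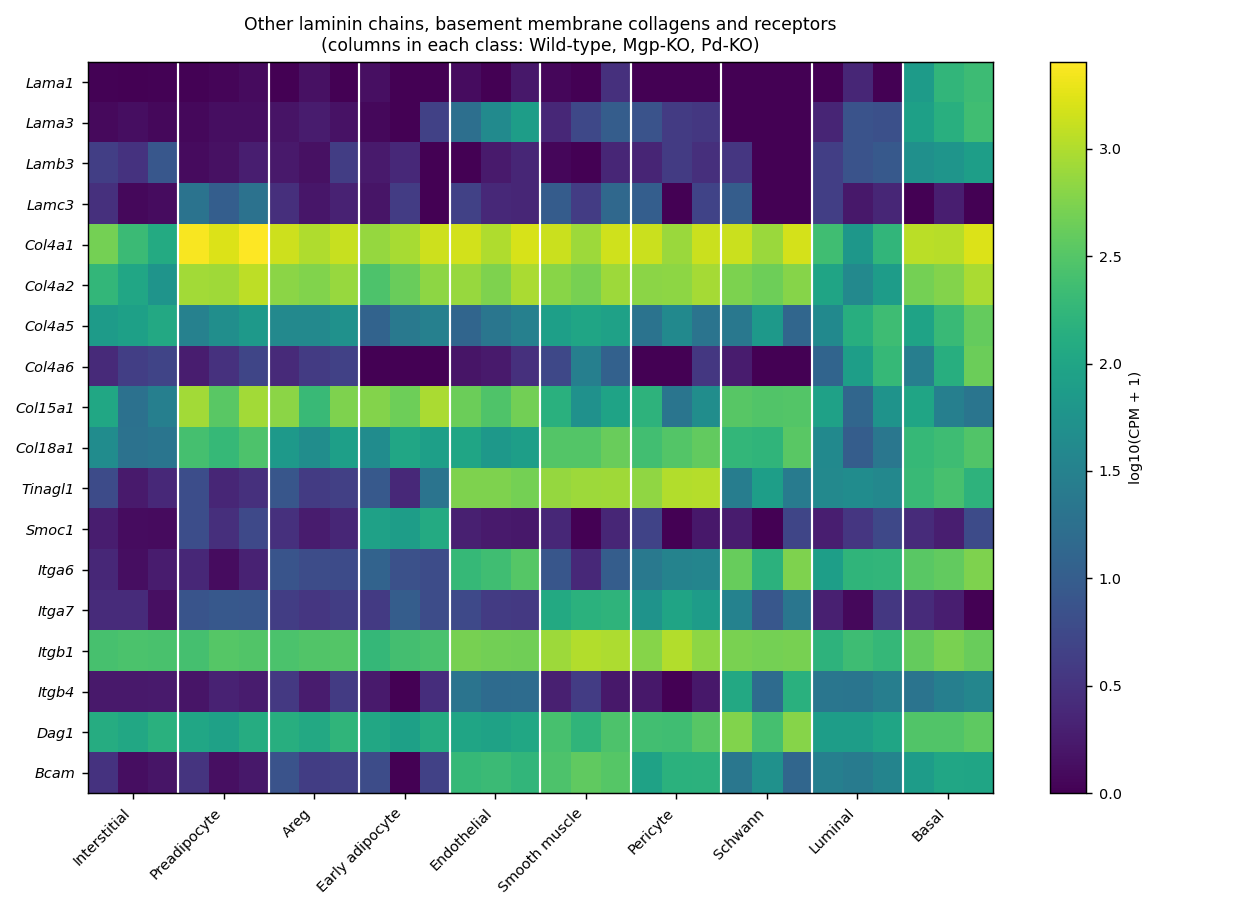
Levels of other laminin chains, basement membrane collagens, associated proteins and laminin receptors as log10(CPM + 1), with the columns of each class in the order Wild-type, *Mgp*-KO, Pd-KO. *Lama1* and *Lama3* are bright in basal cells (72.9 to 227 CPM), *Tinagl1* in vessels and *Itga6*, *Itgb4* and *Dag1* in Schwann-like cells.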

How the data were processed

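The authors deposited 1 table of raw UMI counts per library, with all barcodes, for 32285 genes; per the labels these are 10x Genomics libraries, and the authors' notes name Cell Ranger 6.1.1, whereas the file headers name Cell Ranger 4 (Wild-type) and 7.1.0 (both knockouts). The build is given as mm10 in the study's methods and GRCm39 in the labels, and the methods give default settings for a Cell Ranger version that stands in no header, so the intron setting behind these tables is not settled here. Its part in the higher ratios of long genes was not tested, and version and knockout cannot be told apart in comparisons with Wild-type.

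Barcodes with at least 2000 UMIs and at most 10% mitochondrial UMIs were kept. Cells of the 3 libraries were clustered together with scanpy 1.11.5 (2000 variable genes, 30 principal components, Harmony integration written in Python, 20 neighbours, Leiden resolution 0.5, leidenalg 0.10.2), leaving the basement membrane genes, *Mgp* and sex-linked genes out of the variable genes, and clusters were named from marker lists. A class with under 20 cells in a library was left out. Doublets were kept, and an alternative removed the 4% of cells with the highest doublet scores, because the automatic threshold called too few.

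UMIs were summed over the cells of a class and put on a counts-per-million scale (CPM). Log2 ratios had 0.5 counts added, were taken for genes of at least 100 UMIs over both libraries, and were centred on the median of all genes. Intervals are exact Poisson for levels, exact binomial for shares and exact conditional binomial for ratios (scipy 1.17.1), at 95%, and cover counting error only; PCR, cell sampling and mouse-to-mouse error are outside them. In simulated data for Pd-KO over Wild-type in preadipocyte-like cells, 97.0% of 200 genes changed 2-fold among 11709 tested and 98.5% of 200 changed 3-fold among 11706 were called. Of the unchanged genes, 0.41% and 0.6% were called. The simulated counts held counting error alone, so the check does not cover differences between libraries in processing, span or mice. The total per library was 145242566, 89572427 and 76383468 UMIs in kept cells (Wild-type, *Mgp*-KO, Pd-KO). Spans were read from GENCODE M21 on GRCm38 by gene identifier, found for 99.85% of genes, and promoter sequences from RefSeq (GRCm38.p6). All 9 genes are named, with the 3 most alike genes of each, and from the other lists the chains that define them and those with the largest differences. The members and the gene lists were chosen with earlier results of these data known. A gene of these lists, and the counts over its list, are not reported here.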

Additional observations from a re-analysis of the deposited data

Results flagged for a closer look

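For 3 values the knockout library lay at least 1.5-fold above Wild-type in a class and at least 1.5-fold below it in another. These ratios are relative to the median of all genes tested in the class. Against genes nearest in span, 0 classes were past 1.5-fold higher for each of the 3 values. Each value rests on 1 library per genotype, and the differences between classes were not tested. In *Mgp*-KO over Wild-type, *Nid1* had a log2 ratio of 0.64 in Schwann-like cells and -0.76 in luminal cells, a difference of 1.403. In the same comparison *Nid2* was at 0.77 in early adipocyte-like cells and -0.72 in endothelial-like cells, a difference of 1.49. The early adipocyte-like value was not shared by the clusters of that class. *Nid2* stood at 63.0 CPM in Wild-type and 131.9 CPM in *Mgp*-KO in the cluster led by *Car3* and *Nnat*, and at 39.3 and 29.8 CPM in that led by *Adipoq* and *Car3*, where the intervals overlap. It turned to -0.39 without integration and to -0.42 in cells called female. In Pd-KO over Wild-type, *Nid1* was at 0.74 in early adipocyte-like cells and -0.74 in basal cells, a difference of 1.48. The Schwann-like, early adipocyte-like and basal classes held 23 to 57 cells in the knockout libraries concerned.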

How the results depend on the processing

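Counts of pairs past 1.5-fold (18, 37 and 30 for *Mgp*-KO over Wild-type, Pd-KO over Wild-type and Pd-KO over *Mgp*-KO) moved by more than 1.5 times under 4 kinds of setting. In cells called male they were 18 of 47 for Pd-KO over Wild-type and 7 of 38 for Pd-KO over *Mgp*-KO. With no filter on low counts *Mgp*-KO over Wild-type gave 32 of 89 (11 higher and 21 lower). At 2-fold the 3 counts were 10, 16 and 5. Against genes nearest in span, a setting added after the data had been seen, they were 29 for *Mgp*-KO over Wild-type and 23 for Pd-KO over Wild-type. Without the 3 classes of fewest cells they were 14, 25 and 22. Shares over all genes were computed for the main setting and the span scale alone, so the other counts have no background beside them. The number of genes with the same highest class in all libraries was 4 to 6 of 9 under the settings run. That number has no share over all genes in any setting.

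Single values that turned their direction were as follows. *Lama2* in luminal cells went to -0.52 and -0.22 (*Mgp*-KO and Pd-KO over Wild-type) with called doublets removed, and to -0.74 and -6.17 with free RNA subtracted. *Nid2* in early adipocyte-like cells, *Mgp*-KO over Wild-type, went to -0.39 without integration and -0.42 in cells called female, and *Nid1* in luminal cells, Pd-KO over *Mgp*-KO, to -0.46 in cells called female. *Nid1* in basal cells, Pd-KO over *Mgp*-KO, went to 0.13 with cells of at least 1000 UMIs. Against genes nearest in span, *Mgp*-KO over Wild-type turned for *Lama2* in interstitial progenitor-like (-1.24), preadipocyte-like (-0.67), Areg-like (-0.30) and luminal cells (-1.28). Pd-KO over Wild-type turned for *Lama2* in interstitial progenitor-like (-1.54), preadipocyte-like (-0.84), Areg-like (-0.68), endothelial-like (-0.62), smooth muscle-like (-0.69) and luminal cells (-1.66), for *Lama4* in preadipocyte-like (-0.15), Areg-like (-0.059) and pericyte-like cells (-0.19), for *Lamc1* in preadipocyte-like (-0.009) and luminal cells (-0.12), and for *Hspg2* in Schwann-like cells (-0.034). The causes of these turns were not tested. Of 270 shares of cells with a UMI, 247 moved beyond their interval when cells were thinned to 2000 UMIs, as fewer UMIs per cell must do.

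No paired analysis was possible because each genotype is 1 library. The limits are that there is no replicate of any genotype, that no floxed library without Cre was analysed here, and that depth in Schwann-, basal, pericyte- and early adipocyte-like cells left many genes with fewer than 100 UMIs.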
